A study of Oryza sativa Indica Group with 6 samples.

Results

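The rice chitinase genes named Cht, for chitinase, were examined in seedlings of Abp57-overexpressing rice and of its control. A gene was taken as a Cht gene when its symbol or a synonym in the NCBI rice gene table was Cht with a number. This rule gave 12 genes, Cht1 to Cht12, and 9 of them were measured by a transcript cluster of the array that is paired with no other gene, out of 14662 genes measured in this way. The gene named Cht9 here also carries the synonym Cht1, and the gene named Cht8 also carries Cht2. Each was named by the number that no other gene carries. The array was the Affymetrix Rice (Cn) Gene 1.0 ST Array, on which a transcript cluster is the group of probes that report one transcript. Abp57-overexpressing rice was of the indica cultivar MR219, raised from T3 seeds after Agrobacterium-mediated transformation, and the control was the untransformed wild type of MR219. All seedlings were 10 days old, were grown on MS medium (the sample records name a diluted form) and received no further treatment. There were 3 arrays of overexpressing rice and 3 of the control, and each array held RNA pooled from at least 3 whole seedlings. The promoter behind Abp57 and the number of independent transformed lines are not given in the sources used here. Abp57 itself was not analysed here, because its locus is not named.

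Chitin is a polymer of N-acetylglucosamine that stiffens the walls of fungi and the cuticle of insects, and plants do not make it. Chitinases cut the chain. The Cht genes of rice encode the plant-type chitinases, which are counted among the pathogenesis-related proteins. Class I enzymes carry a small chitin-binding domain in front of the catalytic domain, class II enzymes lack it, and class IV enzymes resemble class I in a shortened form. The fragments that chitinases release from a fungal wall are bound at the cell surface by CEBiP, a chitin receptor of rice.

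The Cht genes lie partly side by side. In the NCBI gene order Cht3 and Cht1 are direct neighbours on chromosome 6, Cht4 and Cht5 on chromosome 4, and Cht2, Cht9 and Cht7 follow each other on chromosome 5. Such copies can share probe targets, and probe sequences were not used here, so a signal may hold some of a neighbour's RNA. Cht2 and Cht12 had no transcript cluster in the platform table, and Cht4 had only one that is also paired with FBA1. The signals below are log2 values after RMA (Robust Multiarray Analysis), a normalization that brings the arrays to one distribution. Signals of different clusters were not ranked against each other, since probes differ in brightness.

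Of the measured Cht genes, Cht1 was the one past the thresholds that the methods set on fold change and unadjusted p, with lower signals in overexpressing rice, and it did not pass after adjustment. Cht1 (LOC4342115, cluster 16517086), whose synonym OsChia1a names it as a class I enzyme, had signals of 6.37, 7.05 and 7.25 in overexpressing replicates 1, 2 and 3, against 7.60, 7.73 and 8.60 in control replicates 1, 2 and 3. The genotypes did not overlap and were 0.36 apart, which is less than the spread inside either one, 0.88 in overexpressing rice and 1.00 in the control. The means were 6.89 ± 0.46 in overexpressing rice and 7.98 ± 0.54 in the control (SD, n = 3 each), so that the control had 2.13 times the signal of overexpressing rice. This is a log2 fold change of -1.09 (standard error 0.31, 95% interval -1.81 to -0.37). Its adjusted p was 0.61 (limma, Benjamini-Hochberg over all 41770 clusters). In whole seedlings, fewer cells that use the gene and less of its RNA per cell cannot be told apart.

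The size of this difference changed with single arrays. A gene was called when it passed the thresholds named in the methods, a fold change above 2 and p below 0.05 without adjustment. The p was that of limma unless another test is named. Cht1 was just past the first of these thresholds. Without control replicate 3, its highest array, the log2 fold change was -0.78, and without overexpressing replicate 1, its lowest, it was -0.83. Both are below a fold change of 2, and leaving out one of the remaining 4 arrays gave -1.28 to -1.17. The unpaired one-way test that the methods name did not call Cht1. With folds from Tukey's biweight, a robust mean, Cht1 had a log2 fold change of -0.61, and with arrays weighted by their quality it had -0.79. The adjusted p ranged between 0.21 and 0.99 over 15 alternatives. Cht1 was lower in overexpressing rice under all of them.

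**Figure D1:**
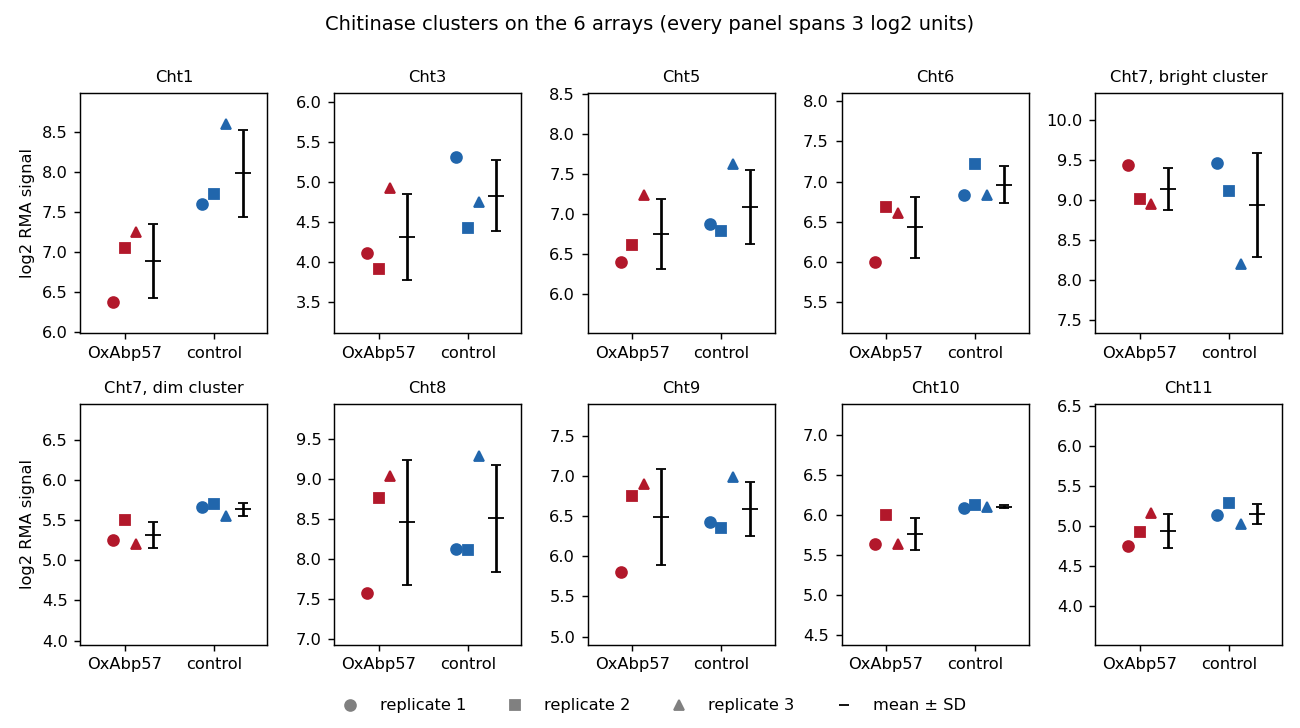
Log2 RMA signal of each measured chitinase cluster, with overexpressing rice (OxAbp57, red) left of the control (blue), symbols for the replicate number and bars for mean ± SD of 3 arrays. Cht1 is apart by genotype with a difference of 1.09, whereas the genotypes of Cht8 and Cht9 overlap, with overexpressing replicate 1 below the control in both. Cht7 is drawn for both of its clusters.

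Of the 9 measured genes, 1 was called lower and 0 were called higher. Over all clusters 0.172% were called lower and 0.335% higher. At an adjusted p below 0.05 limma called 0 of the 9, where 0.0144% of all clusters were called, and the methods' test also called 0. The adjusted p of the 9 genes was 0.61 to 0.99. At p below 0.05 without adjustment limma had 2 of the 9, Cht1 and Cht6, both lower, where 3.62% of all clusters passed in that direction. Cht6 did not pass by the methods' test, nor without overexpressing replicate 1, control replicate 1 or control replicate 2, and by the methods' test Cht10 passed in place of both. The log2 fold change was below 0 in 8 of the 9 genes, as in 55.7% of all clusters, and ranged from -1.09 to 0.20. Its median was -0.34, against -0.03 over all clusters. Without overexpressing replicate 1 the median of the 9 genes was -0.17, and with array weights it was -0.19. The genotypes were apart in 3 genes, Cht1, Cht6 and Cht10, with overexpressing rice lower in each and in 7.53% of all clusters. In 0 genes did overexpressing rice lie wholly above the control, which 5.51% of all clusters did. The 9 values are not independent, since neighbouring copies can share probe targets and all come from the same 6 arrays.

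The neighbouring copies did not pass. Cht3 (LOC4342114, OsChia1c), a class I gene by its synonym and the direct neighbour of Cht1, was dim, with signals of 4.11, 3.91 and 4.92 in overexpressing rice against 5.31, 4.43 and 4.75 in the control. The genotypes overlapped, since overexpressing replicate 3 was above control replicates 2 and 3. Its log2 fold change was -0.52 (standard error 0.31, 95% interval -1.22 to 0.19), so a difference as large as that of Cht1 lies inside the interval. Cht9 (LOC4338719), from the group of 3 on chromosome 5, had 5.81, 6.76 and 6.91 in overexpressing rice against 6.43, 6.36 and 6.99 in the control. Overexpressing replicate 1 was its lowest array and the rest of overexpressing rice lay inside the range of the control. Its log2 fold change was -0.10 (0.30, -0.80 to 0.60), and without overexpressing replicate 1 it was 0.24.

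Cht7 (LOC4338720, OsChia1d), also a class I gene by its synonym, had a pair of single-gene clusters that differed in sign. The brighter, cluster 16526849, represents the gene by the rule of the highest mean. Its signals were 9.44, 9.02 and 8.96 in overexpressing rice against 9.47, 9.12 and 8.21 in the control, with a log2 fold change of 0.20 (0.31, -0.51 to 0.91). Control replicate 3 was the lowest array of this cluster, the reverse of Cht1. The dimmer, cluster 16499387, had 5.25, 5.51 and 5.20 in overexpressing rice against 5.67, 5.70 and 5.55 in the control, with a log2 fold change of -0.32 (0.14, -0.65 to 0.01). Its genotypes were apart, by 0.05. Cluster numbers follow the gene order along the chromosomes, so their neighbours were compared with the place of each gene. Of the 10 nearest clusters with a single other gene, 10 around the dimmer cluster carry genes of chromosome 5, where Cht7 lies, and 0 around the brighter one do, 9 of which carry genes of chromosome 7. The assignment of the brighter cluster to Cht7 is therefore uncertain, and values for both are given. The chosen clusters of the other 8 genes had 8 to 10 such neighbours on the chromosome of their own gene. With the dimmer cluster in its place, all 9 genes had a log2 fold change below 0 and the median was again -0.34, an alternative chosen after seeing the data.

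Cht8 (LOC4349267), which the synonym OsChia2a names as a class II enzyme, differed more between replicates than between genotypes. It had signals of 7.58, 8.77 and 9.04 in overexpressing rice against 8.13, 8.11 and 9.29 in the control. The lowest array was overexpressing replicate 1 and the highest was control replicate 3, while overexpressing replicates 2 and 3 were above control replicates 1 and 2. Cht8 had a log2 fold change of -0.05 with the widest error of the 9 genes (0.43, -1.05 to 0.95). A fall just past 2-fold and a rise of nearly 2-fold both lie inside the interval. Without overexpressing replicate 1 the log2 fold change was 0.39, and without control replicate 3 it was 0.34.

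**Figure D2:**
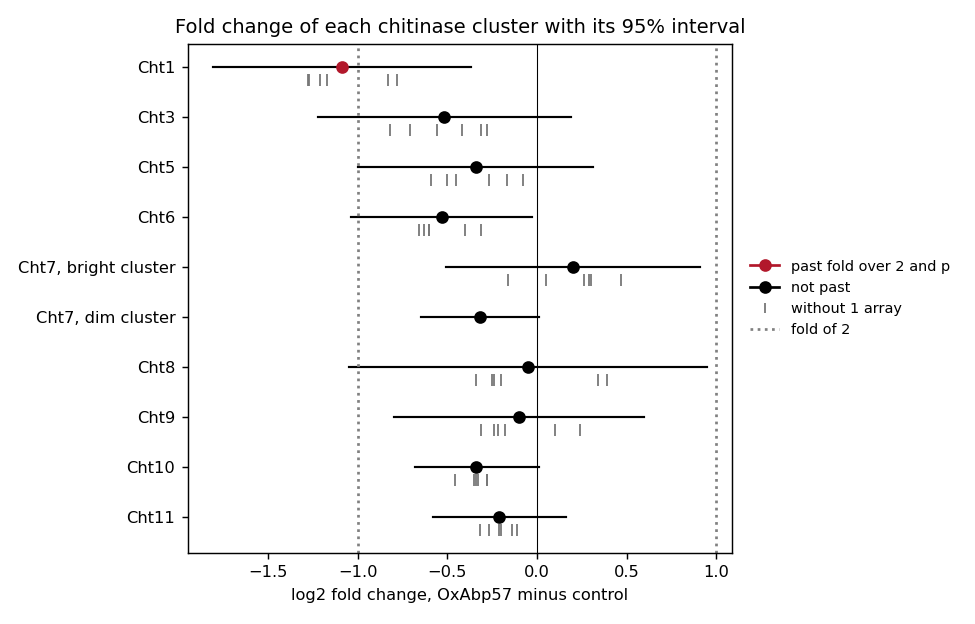
Log2 fold change (OxAbp57 minus control) of each chitinase cluster with its 95% interval from limma; grey ticks show the value without each array in turn (not drawn for the dimmer Cht7 cluster) and dotted lines a fold change of 2. Cht1, in red, passed the thresholds at -1.09, but 2 of its 6 ticks lie above -1, at -0.83 and -0.78.

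The remaining genes had smaller errors than Cht8 and did not pass a fold change of 2. Cht6 (LOC4329920) had 5.99, 6.68 and 6.61 in overexpressing rice against 6.83, 7.22 and 6.83 in the control. The genotypes were apart by 0.14 and the log2 fold change was -0.53 (0.22, -1.04 to -0.03). It was -0.31 without overexpressing replicate 1 and -0.18 with the biweight fold. Cht5 (LOC4336265, OsChia4a), a class IV enzyme by its synonym, had 6.40, 6.61 and 7.24 in overexpressing rice against 6.87, 6.79 and 7.62 in the control. In both genotypes replicate 3 was the highest array of Cht5, and its log2 fold change of -0.34 (0.28, -1.0 to 0.31) was smaller than the range of either genotype. For Cht5 it was -0.08 without control replicate 3, -0.17 without overexpressing replicate 1, -0.12 with array weights and -0.20 with the biweight fold, and -0.59 without overexpressing replicate 3. Cht10 (LOC4325148) varied little, with 5.64, 6.0 and 5.64 in overexpressing rice and 6.08, 6.12 and 6.10 in the control. It was 0.08 apart by genotype, with a log2 fold change of -0.34 (0.15, -0.68 to 0.01). Cht11 (LOC4331519) had 4.75, 4.92 and 5.16 in overexpressing rice against 5.14, 5.29 and 5.03 in the control, and -0.21 (0.16, -0.58 to 0.16). For Cht10 and Cht11 a fall beyond a fold change of 2 lies outside the 95% interval. The cluster paired with both Cht4 and FBA1 was not counted. It had 8.75, 8.86 and 9.16 in overexpressing rice against 8.71, 8.66 and 9.81 in the control, so that control replicate 3 stood above the other 5 arrays. Its log2 fold change was -0.14 (0.30, -0.83 to 0.56). Cht6 and Cht7 each had a further cluster shared with another gene, also not counted. These had log2 fold changes of 0.39 (0.82, -1.49 to 2.27) and 0.88 (0.68, -0.68 to 2.44).

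Several Cht genes shared a pattern of the arrays inside each genotype, which does not bear on whether the genotypes differ. Cht1, Cht5, Cht8 and Cht9 had control replicate 3 as the highest control and overexpressing replicate 1 as the lowest overexpressing array. This held for 4 of the 9 genes and for 16.8% of all clusters. The deviation of control replicate 3 from the mean of the 6 arrays was 1.17 for Cht1, 0.70 for Cht5, 0.80 for Cht8 and 0.45 for Cht9. That of overexpressing replicate 1 was -1.06, -0.52, -0.91 and -0.73 for the same genes in this order. These 4 genes were picked by these arrays. That both arrays move their genotype means toward a lower value in overexpressing rice follows from this choice and is not a separate result. The median deviation over the 9 genes was -0.52, -0.02 and 0.11 in overexpressing replicates 1, 2 and 3, against 0.13, 0.09 and 0.18 in the controls.

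**Figure D3:**
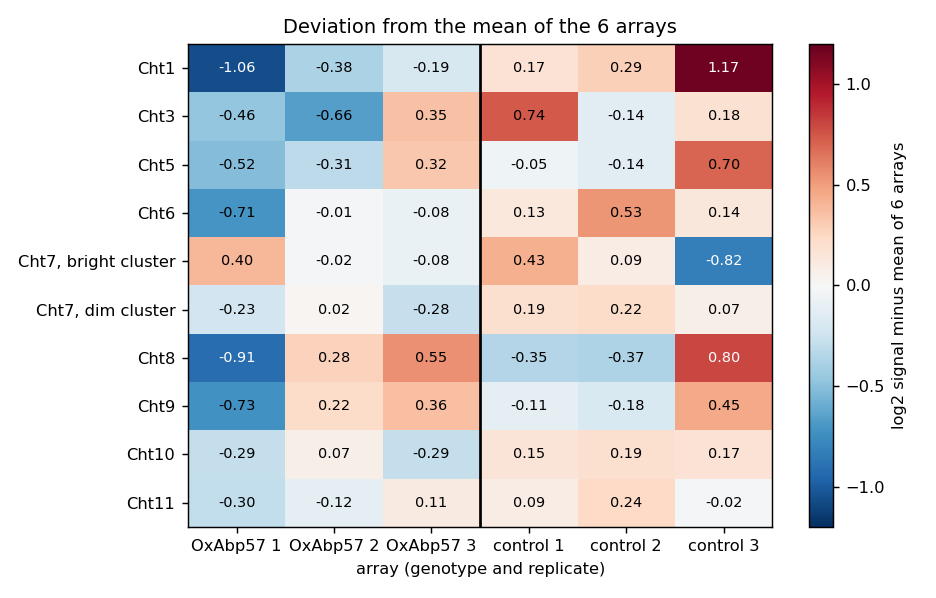
Deviation of the log2 signal from the mean of the 6 arrays for each chitinase cluster (rows), with the 3 OxAbp57 arrays left of the 3 control arrays; red is above and blue below the mean. Cht1, Cht5, Cht8 and Cht9 are lowest in OxAbp57 1 and highest in control 3, and the brighter Cht7 cluster is lowest in control 3, at -0.82.

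Of these arrays, control replicate 3 also stood apart in markers of dividing tissue, while overexpressing replicate 1 did not. The median deviation of 9 cell cycle genes was 0.19, -0.33 and -0.18 in overexpressing replicates 1, 2 and 3, against 0.55, 0.57 and -0.87 in control replicates 1, 2 and 3. Control replicate 3, the highest control of Cht1, was thus the lowest array of these markers, and their part in the Cht values was not tested. Root and shoot markers both gave signal. The median deviation of 7 root markers lay between -0.06 and 0.10 on the 6 arrays, and that of 12 shoot markers was 0.27, 0.02 and 0.07 in overexpressing rice against 0.07, -0.01 and -0.24 in the control. Array medians lay between 5.21 and 5.30. The methods list the highest RNA integrity number, a measure of RNA quality, for replicate 3 of both genotypes. The part of RNA quality in the Cht values was not tested.

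Within an array, Cht1 was compared with each of the other 8 genes, so that a shift of equal size in both cancels. Relative to Cht8, the log2 fold change of Cht1 was -1.04, and the genotypes were apart, between -0.74 and -0.16 in overexpressing rice and between 0.37 and 0.67 in the control after centring. Relative to Cht9, Cht5 and Cht11 it was -0.99, -0.75 and -0.88, again with the genotypes apart. The exact permutation test (two-sided) gave p = 0.1 for each of these 4 genes, the smallest p that 3 arrays against 3 allow, and 0.2 after adjustment over the 8 comparisons. Relative to Cht3, Cht6, Cht10 and the brighter Cht7 cluster the genotypes overlapped, with log2 fold changes of -0.57, -0.56, -0.75 and -1.29 (exact permutation p of 0.3, 0.2, 0.2 and 0.2). This test cannot go below 0.1 here. Cht1 also had the largest fall of the measured Cht genes on these same arrays, and all 8 comparisons share its values. Neither the p nor its adjustment accounts for that, so the test does not settle whether Cht1 differed from another Cht gene.

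Over the 6 arrays the correlation of Cht1 with the other Cht genes, given as a description since all arrays share the genotype contrast, was highest for Cht5 (Pearson r = 0.84) and lowest for the brighter Cht7 cluster (r = -0.74). It lay between 0.50 and 0.73 for the rest. Among 59 genes with a symbol of their own and at least a median signal, the highest correlations with Cht1 were those of PP2C68, a type 2C protein phosphatase (r = 0.905), LEA19, a late embryogenesis abundant protein (0.875), LPR1 (0.860), CFL1, a regulator of the leaf cuticle (0.834), and the non-symbiotic haemoglobin gene NSHB2 (0.811). Of these LEA19 had the log2 fold change nearest to that of Cht1, -0.84, with 5.90, 6.86 and 6.22 in overexpressing rice against 6.62, 6.62 and 8.26 in the control. None of the 5 was called. Over all 10376 genes of such signal 163 had a correlation above 0.9 with Cht1, so the likeness is shared with many genes.

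Genes that act beside chitinases were read from lists that name each gene. Of 33 listed genes of chitin perception and signalling, 4 were measured under a unique name and 0 were called. CEBIP, the chitin receptor, had 6.48, 6.29 and 6.44 in overexpressing rice against 6.58, 6.44 and 6.37 in the control, with a log2 fold change of -0.06 (0.14). RBOHB, an NADPH oxidase, had 0.52 (0.44), the kinase gene MPK4 -0.16 (0.13) and RAR1, a co-chaperone of immune receptors, -0.02 (0.14). None of 11 measured defence regulators and jasmonate genes (30 listed) was called. Their median was -0.09, and the widest differences were -0.39 for TIFY11D, a JAZ repressor of jasmonate responses, and -0.38 for WRKY76. Over all clusters 0.172% were called lower and 0.335% higher, so 0 calls among so few genes say little about either list. The genotypes of MPK4, WRKY62 and WRKY76 were apart, with overexpressing rice lower in each and in 7.53% of all clusters. Those of the other measured genes of both lists overlapped. Of 24 listed pathogenesis-related proteins only PBZ1, of the PR10 group, was measured under a unique name, and it was called lower. It had 5.08, 5.0 and 5.10 in overexpressing rice against 8.0, 8.26 and 5.30 in the control, so that control replicate 3 lay near overexpressing rice. This is the reverse of Cht1, whose highest array was control replicate 3. The log2 fold change of PBZ1 was -2.12 (0.68), with an adjusted p of 0.65 (limma). It reached -3.06 when control replicate 3 was left out (adjusted p = 0.00087, limma), where the adjusted p over the other alternatives was 0.18 to 0.99. PBZ1 was not called without control replicate 2 or by the methods' test.

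**Figure D4:**
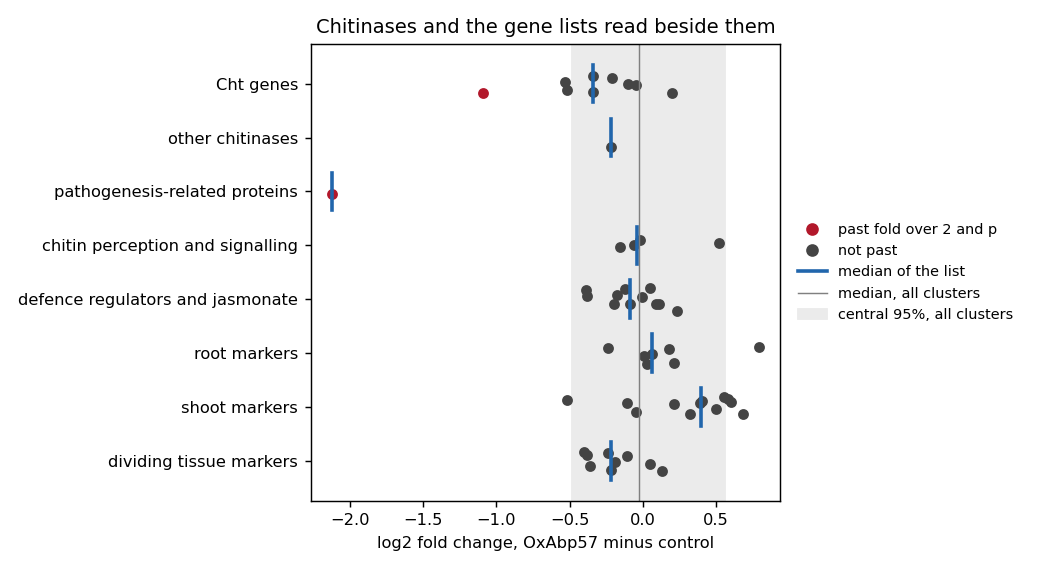
Log2 fold change (OxAbp57 minus control) of the 9 Cht genes and of each measured list gene, with the median of each list in blue and the central 95% of all clusters, -0.48 to 0.56, in grey. Cht1 and PBZ1, in red, are the genes called lower, and the Cht median lies at -0.34.

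Chitinases outside the Cht series were represented by Rcb4 and RIXI. Rcb4 (LOC4348631), chosen after its values were seen because the gene table annotates it as a chitinase, had 6.84, 7.69 and 7.53 in overexpressing rice against 9.06, 9.40 and 6.74 in the control. Control replicates 1 and 2 were above overexpressing rice and control replicate 3 was below it, the order that PBZ1 also had among the controls, whereas control replicate 3 was the highest control for Cht1. The log2 fold change of -1.05 (0.62, 95% interval -2.48 to 0.39) did not pass, and Rcb4 was not called. Without control replicate 3 it was -1.87 (adjusted p = 0.041, limma), where the adjusted p over the other alternatives was 0.37 to 0.99. RIXI (LOC4351194), a chitinase-like protein known in rice as a xylanase inhibitor, had 7.39, 7.96 and 8.10 in overexpressing rice against 7.80, 7.94 and 8.37 in the control, with a log2 fold change of -0.22 (0.23). Like Cht1, RIXI was lowest in overexpressing replicate 1 and highest in control replicate 3.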

How the data were processed

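The authors scanned 6 arrays and ran RMA in Affymetrix Expression Console. They deposited one log2 signal per array for each of 41770 transcript clusters. Transcriptome Analysis Console served for their comparison. Versions of both are not given in the sources used here. Scanner files were not used here. Clusters were named through the platform table and the NCBI gene table of assembly ASM3414082v1, which is of japonica rice, so no coordinates are given. Where a gene had several single-gene clusters, the brightest on average stood for it.

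The log2 fold change of overexpressing rice minus control was fitted over all clusters with limma 3.58.1 in R 4.3.3 (lmFit, eBayes, Benjamini-Hochberg adjustment), and tested on simulated data. Alternatives were the methods' unpaired one-way ANOVA (fold from the mean or the biweight), limma with an intensity trend, removal of the 25% of clusters with the lowest mean, arrays weighted by quality, a block for replicate number, cyclic loess or a second quantile normalization, the mean over clusters of a gene and each array left out. The methods name an unpaired test, and the main fit did not pair the arrays by replicate number. The Cht genes and the 8 gene lists were chosen with earlier results of these data known. Of 171 listed names 45 were measured, and 3 whose only match was another gene were left out. No beta-1,3-glucanase of the list was measured. Genes were named if they were Cht genes, called list members or the 5 most like Cht1 among the 59 compared genes with a symbol. Others, Rcb4 among them, were chosen after their values were seen. Separate biological replicates are stated, and the number of arrays limits the precision. Figures were drawn with matplotlib 3.10.9.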

Additional observations from a re-analysis of the deposited data

How the results depend on the processing

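Cht1 and the 8 other measured genes were refitted under 15 alternatives each. Cht1, Cht3, Cht5, Cht6, Cht10 and Cht11 were lower in overexpressing rice under all of them, and the median of the 9 genes stayed between -0.34 and -0.17. The number of Cht genes called lower was 1, but 0 by the methods' test with either fold and with array weights (Cht1 at -0.79), and 0 to 1 without one array. The sign changed for 3 genes near 0. With the biweight fold Cht7 had -0.07, Cht8 0.75 and Cht9 0.43, and with array weights they had -0.08, 0.36 and 0.15. Cht7 had -0.06 as the mean of its clusters and -0.32 from its dimmer cluster. Without one array Cht7 ranged from -0.16 to 0.47, Cht8 from -0.34 to 0.39 and Cht9 from -0.31 to 0.24. List genes called lower numbered 1, but 0 by the methods' test with either fold and 0 to 2 without one array, the second being the cyclin gene CYCB2;2.

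Over all clusters, 6 were higher and 0 lower at an adjusted p below 0.05. The methods' test gave 0 higher, the intensity trend, the filter on dim clusters, repeated quantile normalization and the mean over clusters of a gene gave 12 each, the replicate block 14 and array weights 24. Lower ones numbered 1 with the filter, the block or the mean over clusters, and 2 with array weights. With one array left out there were 0 to 94 higher and 0 to 57 lower. At the methods' thresholds on fold and unadjusted p, limma had 140 higher and 72 lower. The methods' own test had 102 higher and 27 lower with mean folds, and 99 and 41 with biweight folds. Lower ones numbered 122 with array weights and 54 to 196 with 1 array left out. Higher ones then numbered 104 to 222, the most without control replicate 3. The causes were not tested. With the replicate number as a block, Cht1 kept its log2 fold change of -1.09 (adjusted p = 0.21, limma), and the block changed no call among the Cht genes. Same-numbered arrays had correlations of deviations of 0.35, -0.11 and 0.21, too few values to settle whether replicate numbers pair the arrays. No detection limit is known for these arrays, so the share of background in the signals of the dim genes Cht3 and Cht11 is unknown.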
